A study of Homo sapiens with 8 samples.

Results

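Reported targets of miR-155 are genes that earlier work named as repressed by this microRNA. Of the 58735 genes counted, 37 were taken by symbol from such reports, leaving out genes of chromosome 8, and all 37 were found in the count table. Of these, 35 had enough reads to be tested. They were read in EPC2-hTERT, human esophageal keratinocytes made immortal with telomerase, cultured in 3D at the air-liquid interface. The 4 miR-155OE libraries came from a stable line made with a lentiviral miR-155-5p construct, and the 4 CTRL libraries from cells labelled as control. Both groups had grown on inserts with 0.4 µm pores for 2 days and in 1.8 mM calcium for 5 days before exposure to air. The labels name 1 line per group, do not say what the control cells carry, and do not say how the libraries of a group were obtained, so the p-values rest on a spread that may be technical.

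A microRNA guides Argonaute proteins to messenger RNAs that pair with its seed, bases 2 to 8 from its 5′ end, most often in the 3′ untranslated region (UTR). The bound messenger is translated less and usually decays faster, so that a target's RNA level can fall, commonly by a modest amount. miR-155 is best known from lymphocytes and macrophages, where it dampens brakes on immune signalling such as SOCS1 and INPP5D. RNA counts do not show protein, and repression of translation alone would leave them unchanged.

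The mature microRNA is shown with its seed in capitals, since every match below is a complement of those bases (RefSeq, GRCh38.p14, chromosome 21, 25573983 to 25574006, plus strand).
hsa-miR-155-5p: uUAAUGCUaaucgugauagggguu

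In DNA letters the 7-base match to the seed is AGCATTA, and the 8-base match, AGCATTAA, has an A opposite base 1 of the microRNA. Both were searched on the sense strand of each gene's longest 3′ UTR (GENCODE 29, GRCh38), and every 8-base match contains a 7-base match. Of the 37 genes, 27 held a match (73.0%) and 22 held an 8-base match (59.5%). Among the 12510 tested genes with an annotated 3′ UTR, 11.8% held a match and 4.66% an 8-base match. The median UTR was 1867 bases long for the 37 genes and 1381.5 bases for the tested genes. Seed matches are a usual ground for proposing a target, so the high share describes the list and is not independent of how it was made.

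The 8 genes that were lower in miR-155OE once replicate number was taken into account, described below, all held an 8-base match. These matches are printed with up to 22 bases before them, the match in capitals, in the order of their fold change.
MEIS1 (chr2:66571936-66571943, plus strand): gtctgatttgcaggatttttagAGCATTAA
WEE1 (chr11:9589183-9589190, plus strand): tttgtctttgctgtaaacttgtAGCATTAA
TCF4, upstream match (chr18:55226580-55226587, minus strand): taacaagccttataagtcctaaAGCATTAA
TCF4, downstream match (chr18:55223741-55223748, minus strand): ttgcgactgtacacatagctgcAGCATTAA
GABARAPL1 (chr12:10222533-10222540, plus strand): gaagatggttttgttattaaatAGCATTAA
MSH6 (chr2:47807631-47807638, plus strand): aaaacaaactacatgagattaaAGCATTAA
INPP5D (chr2:233207228-233207235, plus strand): ggtgtgtgttcggaggggtgaaAGCATTAA
TSPAN14 (chr10:80518675-80518682, plus strand): cggaactgcctctggtcttgatAGCATTAA
RICTOR (chr5:38941417-38941424, minus strand): gtttagacctaaaggataggaaAGCATTAA

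The same 8 bases stood in genes that were higher in miR-155OE and in genes that met no threshold. Matches of E2F2 and PALD1, the largest rises on the list, and of SOCS1, the best known target, are printed for comparison.
E2F2 (chr1:23508333-23508340, minus strand): agcactttttagaaaagtttgtAGCATTAA
PALD1 (chr10:70568427-70568434, plus strand): ttttttttgtacagagcttttaAGCATTAA
SOCS1 (chr16:11254812-11254819, minus strand): cggcagcgcccgccgtgcacgcAGCATTAA

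The matches lay at different depths in their UTRs, as the map of matches shows. The SOCS1 match began at base 24 of a UTR of 438 bases, and that of PALD1 at base 1694 of 1716. The MSH6 match lies in a long UTR of 3241 bases that 1 of 6 annotated transcripts carries, and the MEIS1 match is in 4 of 5. JARID2 and ETS1 held 2 8-base matches each, TCF4 held 4 matches of which 2 were of 8 bases, and IKBKE and NFIA held 2 7-base matches each. Among the 10 genes without a match, CKAP5, MYD88, KDM2A and ARNTL had only 6 seed-matching bases followed by A. FADD, RHOA, SMAD1, MAF, RIPK1 and SPI1 had neither kind in the longest UTR. The annotated UTR of SMAD1 is only 145 bases long, and SPI1 and KDM2A hold an 8-base match in another annotated UTR.

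**Figure D1:**
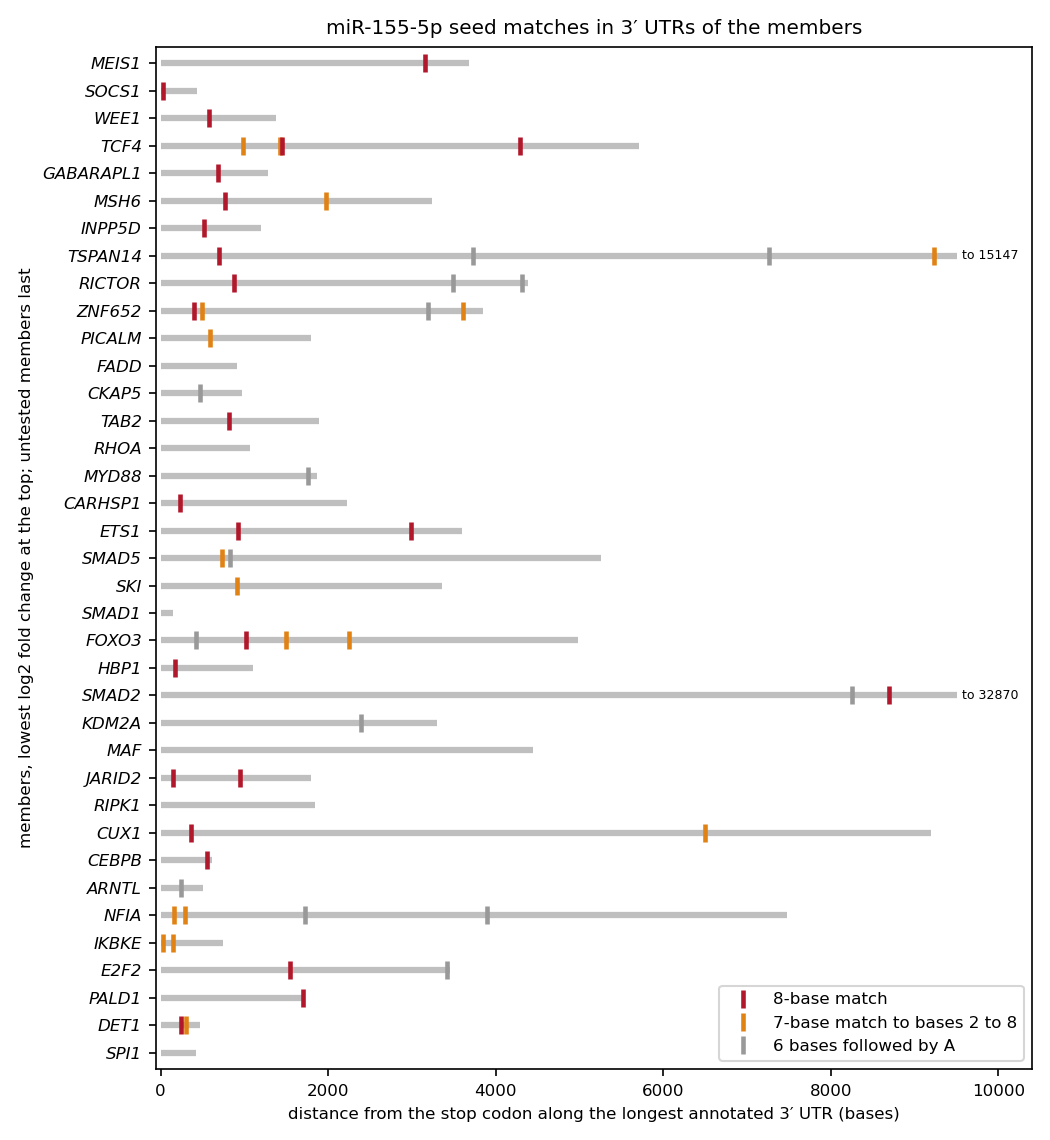
Position of miR-155-5p seed matches (ticks) along the longest annotated 3′ UTR (grey bar, bases from the stop codon) of each of the 37 genes, ordered by log2 fold change with the 2 untested genes last. Bars of TSPAN14 (15147 bases) and SMAD2 (32870 bases) are cut short at the right, where 1 further 7-base match of SMAD2 is not drawn. Each of the first 10 rows holds a match of 8 bases (red), and such matches also stand in E2F2 and PALD1 near the bottom. Grey ticks are 6 matching bases followed by A.

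Library totals ranged from 33.4 to 52.7 M reads, with a mean of 36.4 ± 3.21 M in miR-155OE and 40.0 ± 8.79 M in CTRL (SD, n = 4 each). Summed markers of squamous epithelium stood at 22106 to 26783 CPM (read counts scaled to a common library size) in miR-155OE and 24109 to 28755 CPM in CTRL. Of 10 immune cell markers, 9 averaged under 1 CPM, TYROBP among them with 0 reads, and CD14 had 12.0 CPM in miR-155OE and 8.71 CPM in CTRL. Fibroblast markers were at 0 reads for COL3A1, COL1A2, LUM and DCN, and only COL1A1 of 7 passed 1 CPM. The squamous keratin KRT4 averaged 17.3 ± 20.8 CPM in miR-155OE and 95.4 ± 29.2 CPM in CTRL (SD, n = 4 each) without passing the threshold used below. On chromosome 8 the median log2 fold change was −0.38 over short-arm genes and 0.29 over long-arm genes. The part of these differences in the members' values was not tested. The microRNA itself cannot be read from these counts. In bulk RNA, fewer cells of a type and less RNA per cell cannot be told apart.

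By edgeR's quasi-likelihood test on group alone, with Benjamini-Hochberg adjustment over 15135 genes and a threshold of 0.05, 1 of the 35 tested genes fell and 2 rose in miR-155OE. Of all tested genes 3.22% passed in either direction. MEIS1 was the gene that fell, and E2F2 and PALD1 rose. PALD1 passed the filter on low counts through its miR-155OE libraries. Its rise is therefore not independent of that filter, here and wherever it is counted below. Over all tested genes 1.05% fell and 2.17% rose. Without miR-155OE replicate 2 the count of members that fell was 5, and without any other 1 library it was 0. A fit with replicate number as a block stands beside the fit on group alone. Over all well-expressed genes, libraries with the same number deviated together from their group means. That pairing was uneven. Both libraries numbered 3 correlated best with number 4 of the other group, and over the 35 members the same-number correlations were only −0.21, 0.03, −0.07 and 0.12 for numbers 1 to 4. The counts with the block depend on this pairing. With the block 8 of the 35 fell (22.9%) and 5 rose (14.3%), against 5.17% and 7.43% of all tested genes (12.6% in either direction). The list was chosen with earlier results of these data known, so the difference in shares describes the list and was not tested. The members that fell with the block were MEIS1, WEE1, TCF4, GABARAPL1, MSH6, INPP5D, TSPAN14 and RICTOR, by 0.22 to 0.94 on the log2 scale. E2F2, PALD1, IKBKE, NFIA and ARNTL rose. The median log2 fold change was −0.051 over the 35 and −0.0063 over all tested genes, and 21 of 35 (60%) were below 0 against 51.3% of all.

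By pairs of same-numbered libraries, 11 of the 35 were lower in miR-155OE in 4 of 4 pairs (31.4%), against 16.9% of all tested genes, and 7 were higher in 4 of 4, against 18.8%. The groups did not overlap for 9 of 35 (25.7%), 5 lower and 4 higher, against 5.25% and 6.16% of all (11.4% together). In the pairs numbered 1 to 4, the members' median difference was −0.040, −0.00077, −0.066 and −0.067 on the log2 scale. Pair 2 thus had the smallest shift. The authors' deposited table listed 36 of the 37 and called MEIS1 and TCF4 lower and E2F2 and PALD1 higher, where it called 1.70% of its 25529 genes lower and 3.03% higher.

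**Figure D2:**
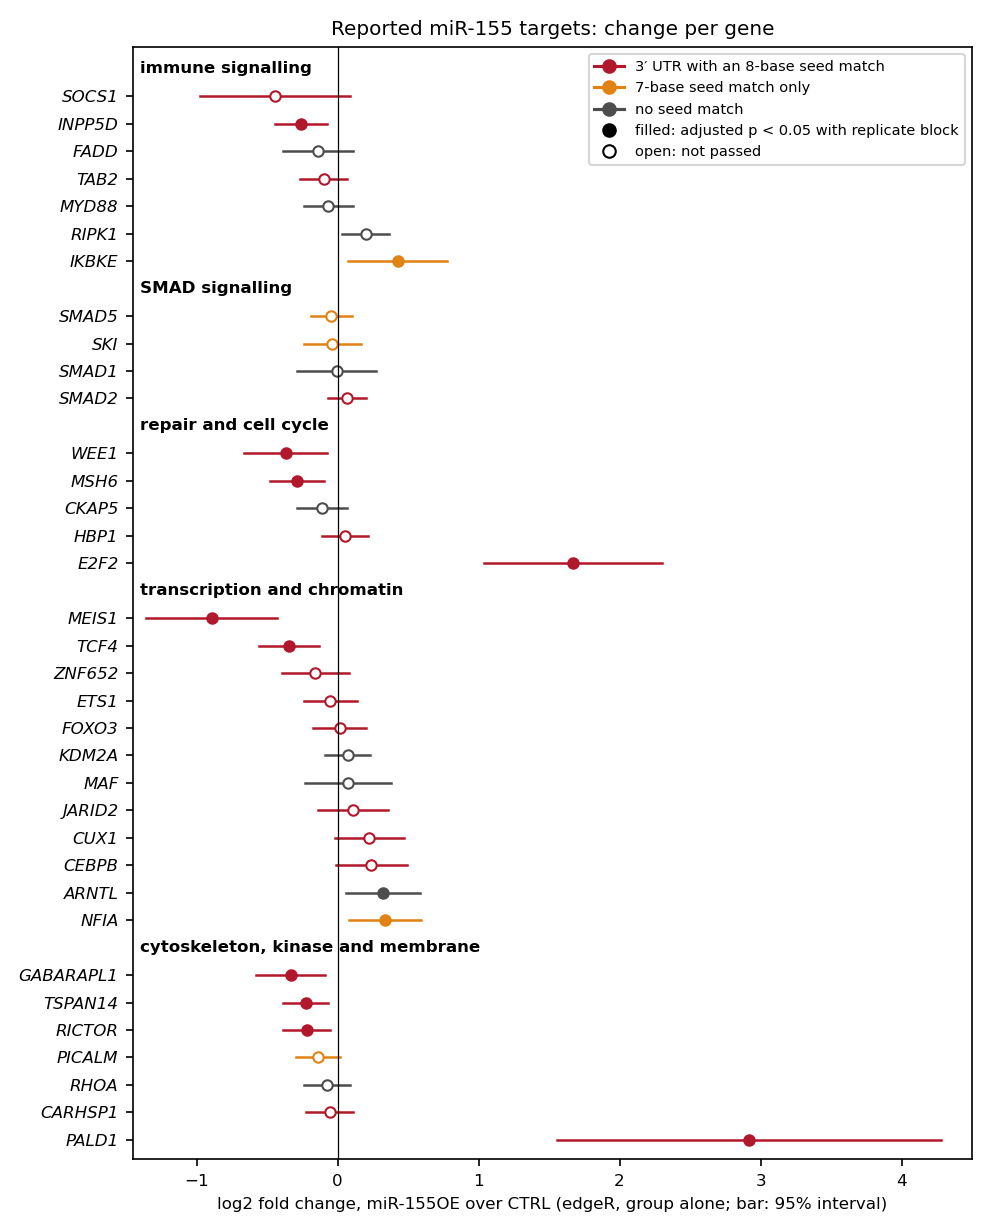
Log2 fold change of miR-155OE over CTRL for the 35 tested genes by role, with 95% intervals of the fit on group alone (n = 4 each). Colour gives the seed match in the 3′ UTR, and filled points passed the threshold with the replicate block. The 8 filled points left of 0 are all red, and E2F2 (1.67) and PALD1 (2.92) lie far to the right.

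Among the immune signalling genes, none of 7 passed on group alone, and with the block INPP5D fell and IKBKE rose. INPP5D encodes the phosphatase SHIP1, which removes a phosphate from the lipid second messenger of PI3-kinase. It had 95.6, 105, 85.7 and 89.5 CPM in miR-155OE libraries 1 to 4, against 114, 124, 109 and 103 CPM in CTRL libraries 1 to 4. All 4 pairs were lower, although miR-155OE replicate 2 lay above CTRL replicate 4. The log2 fold change was −0.26 on group alone (SE 0.08, adjusted p = 0.118) and −0.26 with the block (SE 0.05, adjusted p = 0.0127). IKBKE, a kinase upstream of interferon and NF-kB responses, had 11.0, 9.18, 11.4 and 15.0 CPM in miR-155OE, against 8.17, 8.51, 7.52 and 10.5 CPM in CTRL. Each miR-155OE library was above its own pair, while CTRL replicate 4 exceeded miR-155OE replicate 2. Its log2 fold change was 0.43 (SE 0.16, adjusted p = 0.171), and 0.42 with the block (SE 0.10, adjusted p = 0.0265).

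SOCS1, the inhibitor of JAK-STAT signalling, was a low transcript with 3.09, 4.59, 2.31 and 3.42 CPM in miR-155OE, against 4.35, 5.18, 3.04 and 5.70 CPM in CTRL. It was lower in 4 of 4 pairs, but the groups overlapped and it passed neither fit (log2 fold change −0.44, SE 0.24, adjusted p = 0.359, and adjusted p = 0.0608 with the block). Its 95% interval on group alone ran from −0.98 to 0.09. RIPK1, a kinase of TNF receptor signalling, stood at 26.9 to 32.0 CPM in miR-155OE and 24.6 to 26.5 CPM in CTRL, so that the groups did not overlap, without passing either fit (adjusted p = 0.173, and 0.0732 with the block). MYD88, the adaptor of Toll-like and IL-1 receptors (log2 fold change −0.07), TAB2, an adaptor of the kinase TAK1 (−0.10), and FADD, the death receptor adaptor (−0.14), had intervals that included 0. Of 21 further genes of Toll, IL-1 and TNF receptor signalling, none passed on group alone, and with the block 2 rose, IRAK1 (0.33) and IRAK2 (0.40), and RIPK3 fell (−1.42), at 0.190 CPM in miR-155OE and 0.530 CPM in CTRL. These and the further pathway values given with the block are from the blocked fit. RIPK3 lay near the 0.279 CPM cutoff of the filter on low counts, at 0.120 to 0.301 CPM in miR-155OE libraries. It passed that filter mainly through CTRL libraries, so its fall is not independent of the filter. Of 10 further SOCS genes and SH2-domain phosphatases, none passed on group alone, and with the block SOCS3 rose (0.38) and INPPL1, the paralog of INPP5D, fell (−0.34).

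None of the 4 SMAD signalling genes passed either fit, and their log2 fold changes lay between −0.04 and 0.07. SMAD2, a transducer of TGF-beta and activin, had 70.9, 69.0, 74.4 and 71.4 CPM in miR-155OE, against 62.6, 70.0, 70.7 and 69.8 CPM in CTRL. SMAD5, a transducer of BMP signals, had 57.2, 63.4, 57.7 and 54.3 CPM in miR-155OE, against 57.4, 60.9, 63.4 and 57.9 CPM in CTRL. Both genes overlapped between groups, and their 95% intervals ran from −0.07 to 0.20 and from −0.19 to 0.10. SMAD1 had the widest interval of the 4, −0.28 to 0.27, and SKI, a corepressor of SMAD complexes, −0.24 to 0.17. Of 15 further receptors, SMADs and regulators of the pathway none passed on group alone. With the block TGFBR1, the type I receptor of TGF-beta, fell (−0.35) and ACVR1, a BMP type I receptor, rose (0.24).

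Of the 5 repair and cell cycle genes, E2F2 rose in both fits, and MSH6 and WEE1 fell with the block. E2F2, a transcription factor that drives entry into S phase, had 4.57, 4.73, 8.76 and 8.16 CPM in miR-155OE, against 1.89, 1.97, 1.39 and 3.02 CPM in CTRL. Every miR-155OE library exceeded every CTRL library. Its log2 fold change was 1.67 (SE 0.29, adjusted p = 0.0155), above 99.5% of all tested genes. The call was lost without CTRL replicate 1 (adjusted p = 0.0534) or 3 (0.0564). E2F2 was thus higher in miR-155OE although it carries an 8-base match.

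MSH6, a subunit of the mismatch recognition complex, had 27.3, 34.6, 27.9 and 29.7 CPM in miR-155OE, against 35.5, 36.8, 39.5 and 34.2 CPM in CTRL. Only miR-155OE replicate 2 reached into the CTRL range. The log2 fold change was −0.29 (SE 0.09, adjusted p = 0.101), with an adjusted p of 0.0372 in the blocked fit. MSH6 shares 1785 exon bases with FBXO11 on the opposite strand (log2 fold change 0.09), and whether strand was used in counting is not given. WEE1, the kinase that holds cells before mitosis, had 14.3, 21.0, 14.3 and 16.8 CPM in miR-155OE, against 18.7, 20.9, 21.7 and 24.3 CPM in CTRL. The libraries numbered 2 were level, and 3 of 4 pairs were lower (log2 fold change −0.37, SE 0.13, adjusted p = 0.162, and 0.0405 with the block). CKAP5, a microtubule polymerase (−0.11), and HBP1, a transcriptional repressor of cell cycle genes (0.05), passed neither. Of 7 other mismatch repair genes tested none passed on group alone, and with the block MSH3 rose (0.30). Of 9 tested genes of G2 to M control, CDC25B, the phosphatase that opposes WEE1, rose (148, 174, 161 and 143 CPM in miR-155OE against 123, 115, 104 and 95.1 CPM in CTRL; log2 fold change 0.52, SE 0.09, adjusted p = 0.0209).

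Transcription and chromatin genes numbered 12 tested, of which MEIS1 fell on group alone, TCF4 fell with it under the block, and NFIA and ARNTL then rose. MEIS1, a homeodomain partner of HOX and PBX proteins, had 12.7, 19.6, 8.59 and 12.3 CPM in miR-155OE, against 24.2, 28.4, 25.8 and 20.1 CPM in CTRL. The groups did not overlap, and the nearest libraries were miR-155OE replicate 2 and CTRL replicate 4. The log2 fold change was −0.89 (SE 0.21, adjusted p = 0.0489), the lowest on the list, and −0.94 with the block (SE 0.15, adjusted p = 0.00528). On group alone the call was lost without any library but miR-155OE replicate 2 (adjusted p = 0.0502 to 0.127), and without that library the value was −1.14 (adjusted p = 0.00384).

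TCF4, a basic helix-loop-helix factor, had 13.2, 16.3, 13.3 and 12.5 CPM in miR-155OE, against 18.3, 17.2, 18.1 and 16.5 CPM in CTRL. Every miR-155OE library lay below every CTRL library, by a narrow margin for replicate 2. The log2 fold change was −0.34 (SE 0.10, adjusted p = 0.0771), with an adjusted p of 0.0296 in the blocked fit. NFIA, a nuclear factor I protein, had 19.9, 17.2, 22.4 and 19.7 CPM in miR-155OE, against 13.7, 14.0, 16.8 and 18.1 CPM in CTRL (log2 fold change 0.34, adjusted p = 0.138, and 0.0285 with the block). ARNTL, the clock factor BMAL1, had 11.7, 11.5, 15.7 and 13.4 CPM in miR-155OE, against 10.5, 9.15, 11.3 and 10.7 CPM in CTRL. The ARNTL groups did not overlap, and its log2 fold change was 0.32 (adjusted p = 0.168, and 0.0382 with the block). SPI1, the myeloid factor PU.1, had 0 reads in all 8 libraries, where 3 reads would be 0.0573 to 0.0901 CPM.

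CEBPB, a factor of inflammatory and differentiation programmes, was the most abundant of the 37 per unit length, at 783 TPM (a level that divides by gene length) in miR-155OE and 655 TPM in CTRL. Its change was 0.24 on the log2 scale and passed neither fit (adjusted p = 0.288). The remaining factors, JARID2 of the Polycomb repressive complex 2, CUX1, KDM2A, MAF, FOXO3, ETS1 and ZNF652, lay between −0.16 and 0.22 and passed neither. ZNF652 was below CTRL in every miR-155OE library, at 5.80 to 7.45 CPM against 7.47 to 7.82 CPM. Among 10 further genes of Polycomb repressive complex 2 none passed on group alone, and PHF1 fell with the block (−0.43). Of 15 clock genes, the repressor PER1 fell (28.1, 35.5, 26.3 and 29.1 CPM in miR-155OE against 39.1, 43.6, 38.3 and 48.9 CPM in CTRL; log2 fold change −0.51, SE 0.11, adjusted p = 0.0367). With the block ARNTL2 fell too (−0.28) and RORA, an activator of ARNTL, rose (0.52).

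**Figure D3:**
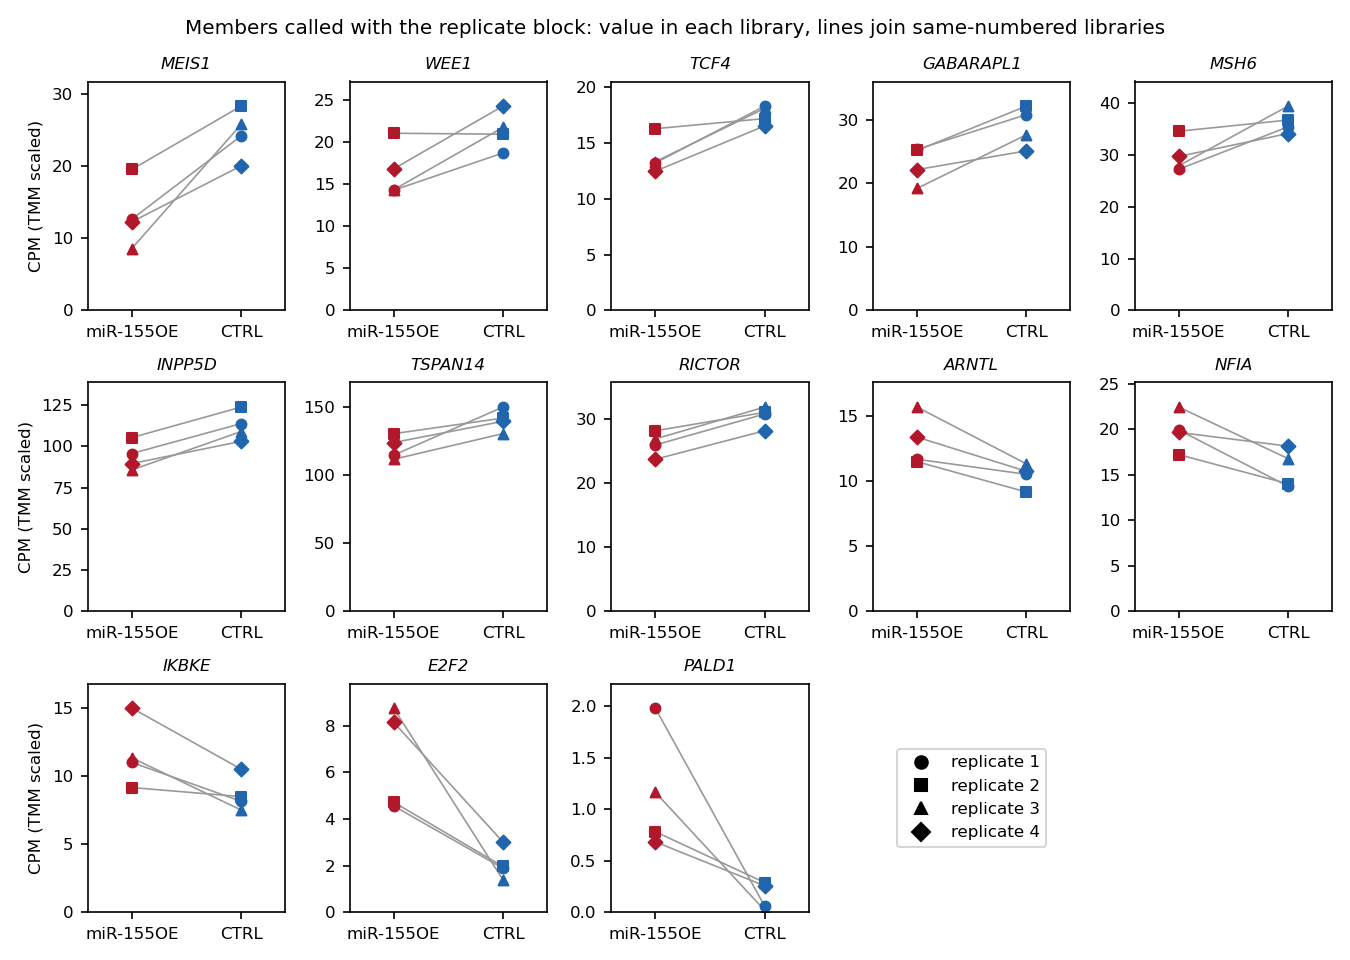
CPM of the 13 genes that passed the threshold with the replicate block, in miR-155OE (left, red) and CTRL (right, blue) libraries, with lines joining same-numbered libraries (n = 4 each). The first 8 genes are lower in miR-155OE, with the smallest gap in the pair numbered 2 (squares) for 6 of them, and the last 5 are higher.

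In the cytoskeleton, kinase and membrane group 7 of 8 were tested, of which PALD1 rose in both fits and TSPAN14, GABARAPL1 and RICTOR fell with the block. TSPAN14, a tetraspanin that escorts the protease ADAM10, had 115, 130, 112 and 124 CPM in miR-155OE, against 150, 142, 130 and 139 CPM in CTRL. The groups touched without overlap between miR-155OE replicate 2 and CTRL replicate 3 (log2 fold change −0.23, SE 0.07, adjusted p = 0.118, and 0.0353 with the block). GABARAPL1, an ATG8-family protein of autophagosomes, had 25.4, 25.2, 19.2 and 22.2 CPM in miR-155OE, against 30.8, 32.2, 27.7 and 25.1 CPM in CTRL. It was lower in 4 of 4 pairs (log2 fold change −0.33, SE 0.11, adjusted p = 0.128, and 0.0176 with the block).

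RICTOR, the defining subunit of mTOR complex 2, had 26.0, 28.2, 26.9 and 23.8 CPM in miR-155OE, against 30.8, 31.1, 31.9 and 28.2 CPM in CTRL. The highest miR-155OE library lay just below the lowest CTRL library. Its log2 fold change was −0.22 (SE 0.08, adjusted p = 0.141), with an adjusted p of 0.0418 in the blocked fit. RICTOR shares 229 exon bases with OSMR on the opposite strand (log2 fold change −0.27). Of 9 further genes of the mTOR complexes and AKT none passed on group alone, and with the block AKT1 rose (0.25).

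PALD1, the phosphatase-like protein paladin, had 66, 28, 47 and 25 reads in miR-155OE replicates 1 to 4, against 2, 10, 1 and 10 reads in CTRL replicates 1 to 4. Every miR-155OE library was above every CTRL library, and CTRL was near the limit of detection. It passed the filter on low counts through the miR-155OE libraries, as 1 CTRL library alone reached that level, so that it had to differ to be tested. Its log2 fold change of 2.92 (SE 0.61, adjusted p = 0.0351) depends on the prior count, and the call was lost without miR-155OE replicate 1 or 3 or CTRL replicate 1, 2 or 3 (highest adjusted p = 0.102). DET1, a ubiquitin ligase component, had 0 to 7 reads per miR-155OE library and 4 to 16 per CTRL library and was not tested. RHOA, the GTPase of the actin cytoskeleton (−0.07), PICALM, a clathrin adaptor (−0.14), and CARHSP1, an RNA-binding protein (−0.06), passed neither fit.

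**Figure D4:**
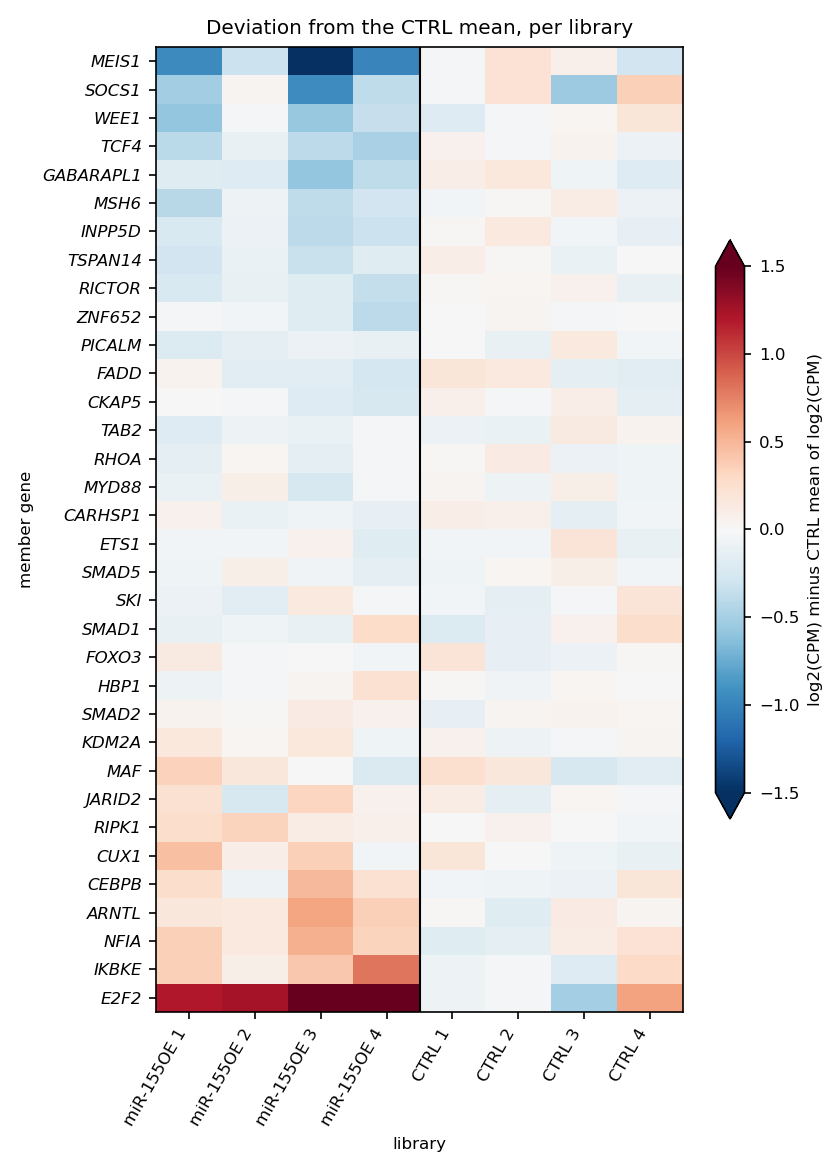
Log2 CPM of 34 tested genes (PALD1 left out for its low CTRL counts) in each library, minus the mean of the 4 CTRL libraries, with rows ordered by log2 fold change. Colours end at 1.5 either way. MEIS1 and E2F2 stand out at the ends, and miR-155OE replicate 2 is the palest miR-155OE library in the rows of MEIS1, SOCS1, WEE1, TCF4, MSH6 and INPP5D.

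All 8 members that fell with the block held an 8-base match, but 59.5% of the 37 genes hold one. Of the 21 tested members with such a match 8 fell and 2 rose with the block, and of the 14 without 0 fell and 3 rose (edgeR, threshold 0.05). Since 5.17% of all tested genes fell with the block, 0 of 14 is near that share. At an unadjusted p under 0.05 on group alone, 14 of the 35 members passed (40%) in either direction, against 19.3% of all tested genes. Of these IKBKE, RIPK1, E2F2, NFIA, ARNTL and PALD1 rose and the others fell. Over all 583 tested genes with an 8-base match, 8.4% fell and 7.55% rose with the block, and over the 11037 with no match 5.44% fell and 8.28% rose. The 583 include the 21 members, and their median UTR was 3382 bases long, against 1209 bases for the 11037. The median log2 fold change on group alone was −0.099 for the 21 members and −0.015 for the 583 genes. It was −0.0057 for the 9 tested members with no match and 0.0015 for the 11037 genes. These are descriptions of chosen lists, without a test of their difference. As a further list, 11 tested genes also reported as miR-155 targets held none that passed on group alone, and with the block BACH1, a repressor of antioxidant genes, rose (0.28). Their median log2 fold change on group alone was 0.08, above 0 where that of the 35 members was below, and 3 of the 11 were below 0. None of the 11 was lower in 4 of 4 pairs, against 16.9% of all tested genes. Higher in 4 of 4 were 5 of the 11, against 18.8% of all. A list of 11 is too short to tell 0 from 16.9%.

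**Figure D5:**
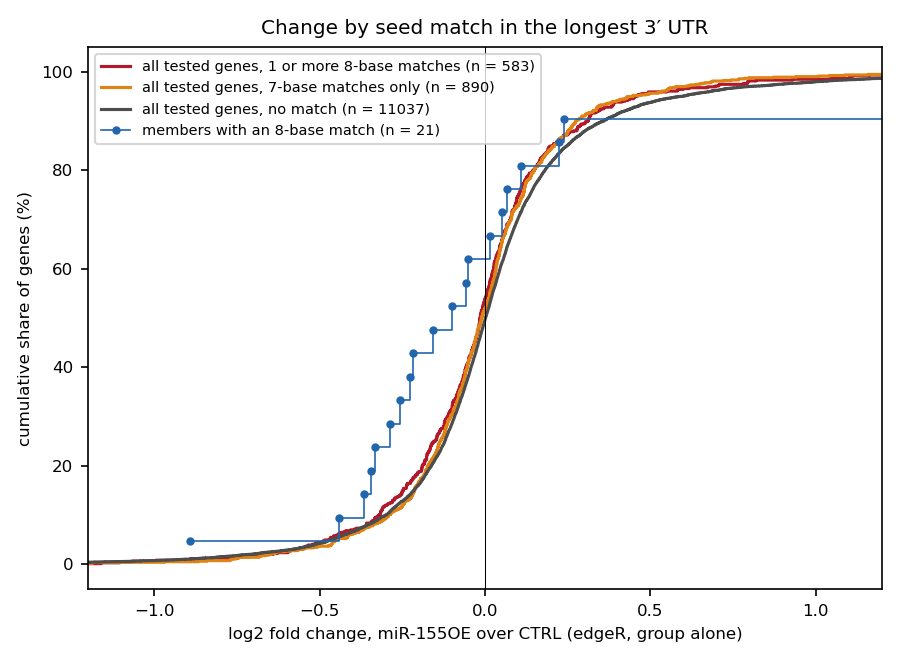
Cumulative share of genes (%) against log2 fold change of miR-155OE over CTRL, by seed match in the longest 3′ UTR. The curves of all tested genes with and without a match lie close together, whereas the 21 members with an 8-base match (blue) lie to their left below 0 and end on the right with E2F2 and PALD1 outside the plotted range.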

How the data were processed

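Counts of reads per Ensembl gene were deposited for 8 libraries. Tools in the submitters' processing notes are featureCounts 1.5.0-p3, HISAT2 2.0.5 and DESeq2. Annotation release, options and strand setting are not given in the sources used here. The authors' comparison table, also deposited, gives a size-factor-scaled signal for each library, a log2 fold change, a raw p-value and an adjusted p-value. Only the authors' fold changes and calls were read from it.

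The test was run with edgeR 4.0.16 under R 4.3.3 (filterByExpr with a minimum count of 10, TMM scaling, quasi-likelihood F test on group alone, Benjamini-Hochberg adjustment at 0.05). SEs and 95% intervals restate that test. Alternatives used DESeq2 1.42.0 and limma 3.58.1 (voom). Per-pair differences used log2 CPM with a prior count of 2. Floors of 3 reads cover counting error only.

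Libraries carry numbers 1 to 4 in their titles, with no word on what a number means. Pairs were formed by these numbers alone. Over 10291 genes with a mean CPM of at least 4, deviations of same-numbered libraries from their group means correlated at 0.576, 0.494, 0.181 and 0.604. These correlations describe the pairs and did not select them. The best match of both libraries numbered 3 was number 4, and over the 35 members the correlations ran from −0.21 to 0.12.

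Members, role groups and lists were chosen with earlier results of these data known. Values per library are given for members past the threshold in either fit and the 2 lowest p of each role group. SOCS1, RIPK1 and ZNF652 were added after their values were seen. Pathway genes are those past the threshold and otherwise the lowest p or, added later, those past it with the block; some are not reported here. Sites were searched in GENCODE release 29 transcripts. Methods were tested on simulated data without any replicate effect, so that check does not cover the block where replicates share variation.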

Additional observations from a re-analysis of the deposited data

Results flagged for a closer look

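In 70 groups of 4 libraries (35 tested genes in each group), 3 held a library that stood apart from the other 3 by nearly the whole range of its group. Chance marks about 1 in 20 groups in this way. SMAD1 had 18.9 CPM in miR-155OE replicate 4, where the others had 14.4 to 14.9 CPM. SMAD2 had 62.6 CPM in CTRL replicate 1, where the others had 69.8 to 70.7 CPM. CEBPB had 506 CPM in CTRL replicate 4, where the others had 422 to 436 CPM. None of these genes passed the threshold in either fit.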

How the results depend on the processing

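With the replicate number as a block, 8 members were past the threshold lower and 5 higher, against 1 and 2 on group alone. Lower members numbered 2 by DESeq2's Wald test, 0 with upper quartile factors (MEIS1 adjusted p = 0.0505), 0 with a filter of 1 CPM in 4 libraries (0.0508) and 0 without chromosome 8 genes (0.0564). Higher members numbered 1 under the 1 CPM filter, which removes PALD1. Leaving out 1 library gave 0 to 5 lower and 0 to 2 higher members, with 5 lower without miR-155OE replicate 2 and 0 higher without CTRL replicate 1 or 3. The median over members kept its sign, at −0.072 to −0.031 without 1 library. Beyond libraries left out, 265 of 279 results kept direction and side of the threshold in 8 settings. Sign turned in a library left out for genes near 0: SMAD1 (−0.10 to 0.087), SKI (−0.10 to 0.034), ETS1 (−0.089 to 0.018), FOXO3 (−0.026 to 0.084), MAF (−0.023 to 0.17) and HBP1 (−0.0094 to 0.093). The cause was not tested. The number of all tested genes past the threshold was 488, 1908 with the block, 1223 by DESeq2, 927 with no filter and 125 to 1274 without 1 library. Genes with a match had a median 0.013 lower than genes without, and 0.011 to 0.016 lower with all annotated UTRs, 8-base matches only or a mean CPM of at least 4. Depth limits DET1, PALD1 and SPI1.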
